A study of Mus musculus with 20 samples.

Results

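The genes described here are 8 mouse genes of efferocytosis, the engulfment of dying cells by phagocytes. They are the receptors Mertk, Axl, Megf10, Stab1 and Msr1 and the secreted bridging proteins Gas6, Pros1 and Mfge8. They were taken by symbol from a single-cell count table of mouse spinal cord, and all 8 were found among its 16003 genes. The rule that selects them uses symbols and no measured value, although the list was drawn up with earlier results of these data known.

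A dying cell exposes phosphatidylserine on its outer membrane, and phagocytes recognise this lipid directly or through soluble bridging proteins. Gas6 and protein S, the product of Pros1, bind the lipid with one end and a receptor tyrosine kinase of the Tyro3, Axl and Mertk family with the other. Protein S is a ligand of Mertk but not of Axl, whereas Gas6 binds both. Mfge8 links the lipid to integrins. Stab1 (stabilin-1) binds phosphatidylserine itself, Msr1 is the class A scavenger receptor of macrophages, and Megf10 is an engulfment receptor of glia. In injured cord, microglia and macrophages that enter from the blood clear dead cells and myelin debris.

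By RefSeq's annotation of GRCm38, the assembly named in the submitters' processing notes, Mertk (NCBI Gene 17289) lies at chr2:128698915-128803162 and Axl (26362) at chr7:25756500-25788924. Mfge8 (17304) lies on the same chromosome as Axl, at chr7:79133768-79149060. Stab1 (192187) lies at chr14:31139017-31168651 and Pros1 (19128) at chr16:62854307-62929346. Gas6 (14456) and Msr1 (20288) share a chromosome, at chr8:13465374-13494535 and chr8:39543232-39642750. The values are counts per gene, with no information on exons or isoforms.

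The mice were females of strain C57BL/6J, aged 8 to 10 weeks, that ate vehicle chow or chow with 1200 ppm PLX5622, an inhibitor of the Csf1 receptor that removes microglia. The diet began 2 weeks before a T9 contusion spinal cord injury (SCI) or a sham laminectomy and went on to the end point. Cells of unperfused cord around the injury site were sequenced in 6 libraries, namely sham, 7 days post injury (dpi) and 28 dpi under each diet, and each library pooled 3 to 4 mice. The label of each sham library gives both 7 and 28 days and no single day, so a single sham library per diet is the reference for both times.

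The vehicle libraries held 1795 cells (sham), 7439 cells (7 dpi) and 9846 cells (28 dpi), and the PLX5622 libraries 492, 504 and 940 cells in the same order. Their totals ran from 2606149 to 35694246 unique molecular identifiers (UMIs), each of which stands for 1 captured transcript, and their median UMIs per cell from 2268 to 5127. The 14 clusters are the authors' own, and they are named here by the cell type whose marker genes were highest in them. All 6 markers were highest in the cluster itself for endothelial-like, astrocyte-like and ependymal-like cells, 5 of 6 for microglia-like cells, and 4 of 6 for cells like monocyte-derived macrophages (MDM-like) and for monocyte-like cells. The monocyte-like cluster also held border macrophage markers, whose summed level there was 3015 UMIs per 1000000 (CPM) in vehicle sham. One cluster, led by Aspn, Pi16 and Lum, was highest for both fibroblast and pericyte markers and is called by those markers. A barcode was shared by 2 libraries in 44 cases, with no identical pair. In each library a gene seen in fewer than 3 cells stands at 0 in the table, and this removed the 2 UMIs of Msr1 of the PLX5622 sham library. Since every condition is 1 pool, no test between conditions can be made. All intervals are 95% intervals of counting error only, and every difference between libraries lacks a replicate check.

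Levels below are UMIs of a gene summed over the cells of a cluster in a library, given as CPM of that sum. Over all libraries, which are mostly the vehicle libraries of 7 and 28 dpi, each of the 8 genes had its own order of clusters. Levels are compared between clusters and libraries, never between genes. The clusters were drawn from the same cells, so the order is a description.

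Axl was highest in the fibroblast and pericyte marker cluster, at 588 CPM (interval 526 to 655). The MDM-like cluster followed at 270 (265 to 275), the microglia-like cluster at 245 (238 to 253) and the monocyte-like cluster at 186 (173 to 200). The intervals of these 4 did not overlap. The lowest level of Axl, 36.2 CPM, was in ependymal-like cells.

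Mertk gave few UMIs everywhere. Microglia-like cells held 12.9 CPM (11.3 to 14.7) and astrocyte-like cells 11.7 (7.65 to 17.2), which counting error does not separate, and MDM-like cells held 6.72 (5.92 to 7.59).

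Stab1 was highest in the proliferating cluster, at 219 CPM (206 to 234), then in MDM-like cells at 186 (182 to 190). Of the 940 Stab1 UMIs of the proliferating cluster, 838 came from the vehicle library of 7 dpi. In vehicle sham and 28 dpi that cluster gave 6.39 (2 UMIs) and 51.8 CPM, against 140 and 144 in monocyte-like cells. The erythroid-like cluster at 161 (129 to 199) and the monocyte-like cluster at 158 (146 to 171) were not separable from each other. The erythroid-like cluster also held RNA of MDM markers, with 1982 CPM of Gpnmb, the next highest level after MDM-like cells. Of its 87 Stab1 UMIs, 74 came from the vehicle library of 7 dpi. Msr1 was highest in the proliferating cluster too, at 115 CPM (105 to 126). Its levels in monocyte-like cells, 99.8 (90.2 to 110), overlapped with both the proliferating cluster and the MDM-like cluster at 89.9 (87.0 to 93.0). Microglia-like cells held 19.8 CPM of Msr1.

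Megf10 was an astrocyte-like gene in these cells, with 91.9 CPM (79.7 to 105). Cells of the oligodendrocyte lineage-like cluster held 37.7 (25.4 to 53.8) and ependymal-like cells 12.3 (8.74 to 16.8), with 4 UMIs in all microglia-like cells and 4 in all MDM-like cells.

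Among the bridging proteins, Gas6 was highest in ependymal-like cells at 292 CPM (274 to 312). Endothelial-like cells at 199 (185 to 213) and leptomeningeal-like cells at 169 (145 to 196) overlapped, and MDM-like cells held 137 (133 to 141). Pros1 was highest in microglia-like cells at 116 CPM (111 to 121). Its next levels, 85.4 in ependymal-like, 82.5 in endothelial-like and 80.6 in fibroblast and pericyte marker cells, were not separable, and MDM-like cells stood at 55.5. Mfge8 was highest in the fibroblast and pericyte marker cluster at 575 CPM (514 to 642). The oligodendrocyte lineage-like cluster at 216 (185 to 251) and the MDM-like cluster at 206 (202 to 211) overlapped, and endothelial-like cells held 156 (144 to 169).

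**Figure D1:**
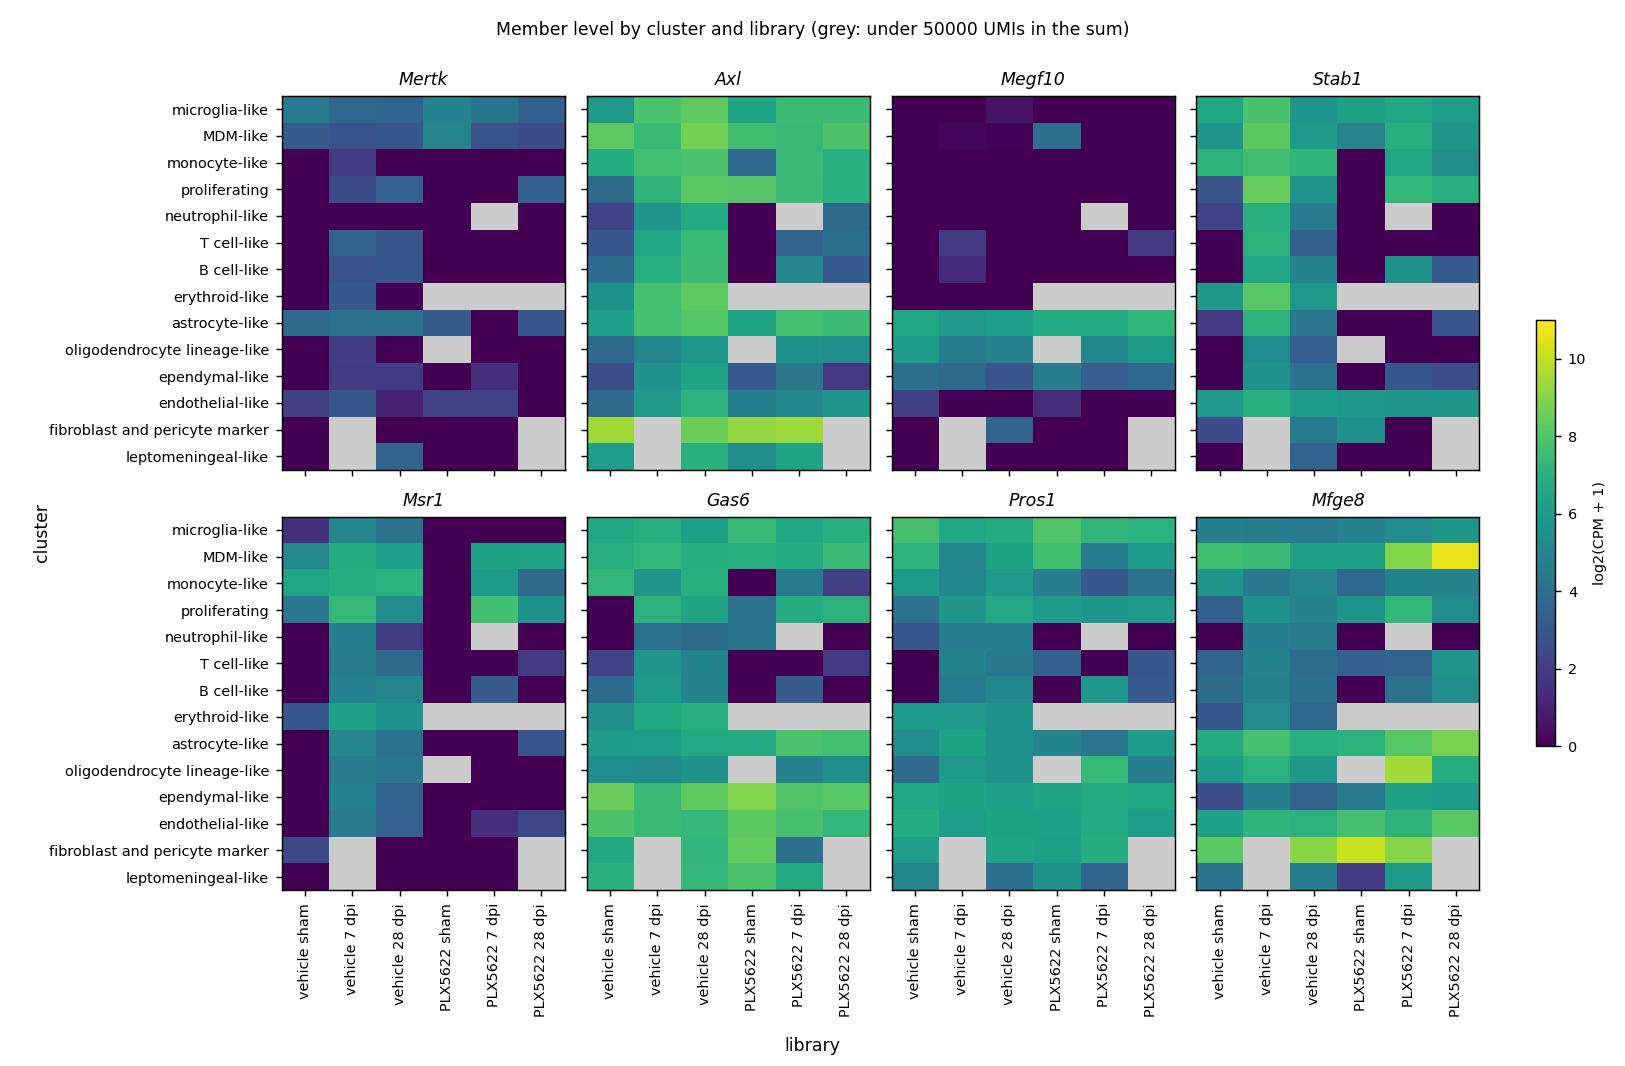
Level of each of the 8 genes as log2(CPM + 1), by cluster (rows) and library (columns, vehicle then PLX5622, each as sham, 7 dpi and 28 dpi); grey marks sums under 50000 UMIs. Megf10 is brightest in the astrocyte-like row, Gas6 in the ependymal-like row of most libraries, and Mfge8 in MDM-like cells of PLX5622 at 28 dpi, at 1624 CPM.

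Axl, the receptor that binds Gas6, gave 59.6 CPM in vehicle sham microglia-like cells (125 UMIs), 232 at 7 dpi (1567 UMIs) and 315 at 28 dpi (2496 UMIs). On the log2 scale the 7 dpi library stood 1.96 (1.70 to 2.24) above sham, and the 28 dpi library 2.40 (2.14 to 2.67). Both injured libraries thus lay above the sham library, by 3.89-fold and 5.28-fold, and the sham library is shared by both ratios. In PLX5622-fed mice the few microglia-like cells that were captured, 29, 61 and 126 of them, gave 84.7 CPM in sham, 185 at 7 dpi and 186 at 28 dpi. PLX5622 over vehicle came to -0.33 at 7 dpi (-0.69 to 0.02) and -0.76 at 28 dpi (-1.10 to -0.44), so the PLX5622 library was the lower one at 28 dpi and was not separable at 7 dpi.

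In MDM-like cells Axl followed another order. It gave 304 CPM in vehicle sham (431 UMIs in 185 cells), 173 at 7 dpi and 420 at 28 dpi. The 7 dpi library was below sham, at -0.81 (-0.96 to -0.67), and the 28 dpi library above it, at 0.47 (0.32 to 0.61). Under PLX5622 the levels were 200 in sham, 175 at 7 dpi and 242 at 28 dpi. Against vehicle they were equal within counting error at 7 dpi, at 0.01 (-0.16 to 0.18), and lower at 28 dpi, at -0.79 (-0.96 to -0.63). B cell-like and T cell-like cells, which should lack Axl, gave 184 and 167 CPM at 28 dpi under vehicle. Under PLX5622 they gave 8.10 (1 UMI) and 15.3 CPM (6 UMIs). The part of such background in the diet ratios of microglia-like and MDM-like cells was not tested.

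The share of cells with an Axl UMI was taken after each cell was thinned to 1000 UMIs, which leaves out shallower cells. Among vehicle microglia-like cells, 28 of 548 held one in sham (5.11%, 3.42 to 7.30). At 7 dpi 363 of 1984 did (18.3%, 16.6 to 20.1), and at 28 dpi 786 of 3068 (25.6%, 24.1 to 27.2). Without thinning, the same shares were 13.5%, 42.2% and 38.8%, at median depths of 3178, 2902 and 1686 UMIs, so the injured libraries change places when depth is not matched. B cell-like cells, which should lack the gene, held thinned shares of 0 of 23, 7.53% and 15.0% in the same 3 libraries, and T cell-like cells 0 of 61, 4.13% and 8.30%. The microglia-like share was above both in each injured library. Under PLX5622 no thinned B cell-like or T cell-like cell held an Axl UMI, and the microglia-like share was 16.7% at 7 dpi and 15.9% at 28 dpi.

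Mertk, the other receptor of this family in the set, was lower in the injured than in the sham vehicle library of microglia-like cells by total UMIs. It gave 22.9 CPM in sham (48 UMIs), 12.1 at 7 dpi (82 UMIs) and 10.6 at 28 dpi (84 UMIs). Both injured libraries were below sham, by log2 ratios of -0.91 (-1.45 to -0.37) and -1.11 (-1.64 to -0.57). The thinned shares of cells with a Mertk UMI had intervals that overlapped, at 2.01% (1.01 to 3.56), 1.51% (1.02 to 2.15) and 1.04% (0.714 to 1.47), and were 6.82%, 3.71% and 2.04% before thinning. In MDM-like cells the 3 levels were 8.46, 6.29 and 7.28 CPM, and both ratios over sham had intervals that included 0. Under PLX5622 Mertk rested on 4, 7 and 4 UMIs in microglia-like cells and 2, 11 and 6 in MDM-like cells, and no difference from vehicle was detectable at this depth.

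Stab1 was highest at 7 dpi. Vehicle microglia-like cells gave 89.2 CPM in sham, 226 at 7 dpi and 54.2 at 28 dpi, with log2 ratios over sham of 1.34 (1.12 to 1.57) and -0.72 (-0.97 to -0.46). Vehicle MDM-like cells gave 54.3, 299 and 59.0 CPM, so that the 7 dpi library stood 5.51-fold above sham, at 2.46 (2.14 to 2.81), and the 28 dpi library was not separable from sham, at 0.12 (-0.22 to 0.48). The thinned share of MDM-like cells with a Stab1 UMI was 2.29%, 23.9% and 5.43% in these libraries, against 5.48% of B cell-like and 7.44% of T cell-like cells at 7 dpi. At 28 dpi the MDM-like share (4.68 to 6.27) was within counting error of that of B cell-like cells, 4.38% (1.78 to 8.81). By total UMIs the MDM-like level at 28 dpi, 59.0 CPM (55.0 to 63.2), was above that of B cell-like cells, 30.6 (18.1 to 48.4). It was also above that of T cell-like cells, 9.61 (3.53 to 20.9). Whether Stab1 exceeds background there thus depends on the measure. Before thinning the MDM-like shares were 25.9%, 65.0% and 18.7%, at median depths of 5769, 5777 and 3875 UMIs.

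The peak of Stab1 at 7 dpi was smaller under PLX5622. Microglia-like cells gave 77.7 CPM in sham (11 UMIs), 96.5 at 7 dpi (37 UMIs) and 69.8 at 28 dpi (30 UMIs), and MDM-like cells gave 30.8 (2 UMIs), 119 (207 UMIs) and 55.9 (72 UMIs). At 7 dpi the ratio of PLX5622 over vehicle was -1.22 (-1.74 to -0.76) in microglia-like cells and -1.34 (-1.54 to -1.14) in MDM-like cells. With each MDM-like cell weighted alike this second ratio was -0.45, and with cells of at most 3000 genes it was -0.38, so it stayed below 0 but within 2-fold when the deepest cells counted less. T cell-like cells, which should lack the gene, gave 135 CPM at 7 dpi under vehicle and 0 (up to 30.8) under PLX5622. B cell-like cells gave 95.2 and 49.7 CPM (6 UMIs). The part of such background in the microglia-like and MDM-like ratios was not tested. At 28 dpi the PLX5622 library was not separable from vehicle in either cluster, at 0.36 (-0.22 to 0.90) and -0.08 (-0.44 to 0.27). Monocyte-like cells gave 140, 197 and 144 CPM under vehicle, and 0, 87.5 and 41.7 under PLX5622, where this cluster held 14, 29 and 63 cells.

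Msr1 in MDM-like cells gave 35.3 CPM in vehicle sham, 107 at 7 dpi and 73.3 at 28 dpi, with ratios over sham of 1.60 (1.20 to 2.04) and 1.06 (0.65 to 1.50). In the proliferating cluster it gave 19.2, 164 and 41.1 CPM under vehicle. Under PLX5622 MDM-like cells gave 80.2 and 84.7 CPM at 7 and 28 dpi. In PLX5622 sham, where 9 MDM-like cells were present, the 0 was set by the filter that removed the 2 Msr1 UMIs of that library. The PLX5622 library was lower than vehicle at 7 dpi, at -0.42 (-0.67 to -0.17), and not separable at 28 dpi, at 0.21 (-0.09 to 0.50).

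In microglia-like cells Msr1 gave 1.91 CPM in vehicle sham (4 UMIs), 32.0 at 7 dpi (216 UMIs) and 16.5 at 28 dpi (131 UMIs). The ratios over sham were 4.07 (2.69 to 5.96) and 3.11 (1.72 to 5.01). The thinned share of cells with a UMI was 0.365%, 2.52% and 1.21%, and that of B cell-like cells 2.05% at 7 dpi and 2.50% at 28 dpi, at median depths of 2945 and 2251 UMIs against 3043 and 2069. T cell-like cells held 1.65% (0.201 to 5.84) and 0.415% (0.0105 to 2.29), and endothelial-like cells 0.334% (0.00847 to 1.85) and 0.330% (0.00836 to 1.82). The microglia-like share at 7 dpi was thus above that of endothelial-like cells, where 1 of 299 cells held a UMI. It was within counting error of those of B and T cell-like cells. At 28 dpi its interval (0.851 to 1.66) overlapped all 3. By total UMIs at 7 dpi, microglia-like cells at 32.0 CPM (27.9 to 36.6) overlapped endothelial-like cells at 21.9 (14.9 to 31.0). They also overlapped B cell-like cells at 27.2 (16.1 to 43.0) and T cell-like cells at 24.3 (11.1 to 46.2). Whether the microglia-like UMIs exceed free RNA thus depends on the measure and on the cluster taken as background. Before thinning, the microglia-like shares were 0.593%, 8.17% and 2.94%, and the B cell-like ones 7.37% at 7 dpi and 4.26% at 28 dpi. Under PLX5622 the counts used held no Msr1 UMI of a microglia-like cell in any of the 3 libraries. The sham 0 was set by the filter described above, which removed the 2 Msr1 UMIs of that library, so it is not an observed 0. With the 0 of each injured library set to the floor of 3 counts, the level was at least 4.09-fold lower than vehicle at 7 dpi. It was at least 2.37-fold lower at 28 dpi, with the same limit on the vehicle values.

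**Figure D2:**
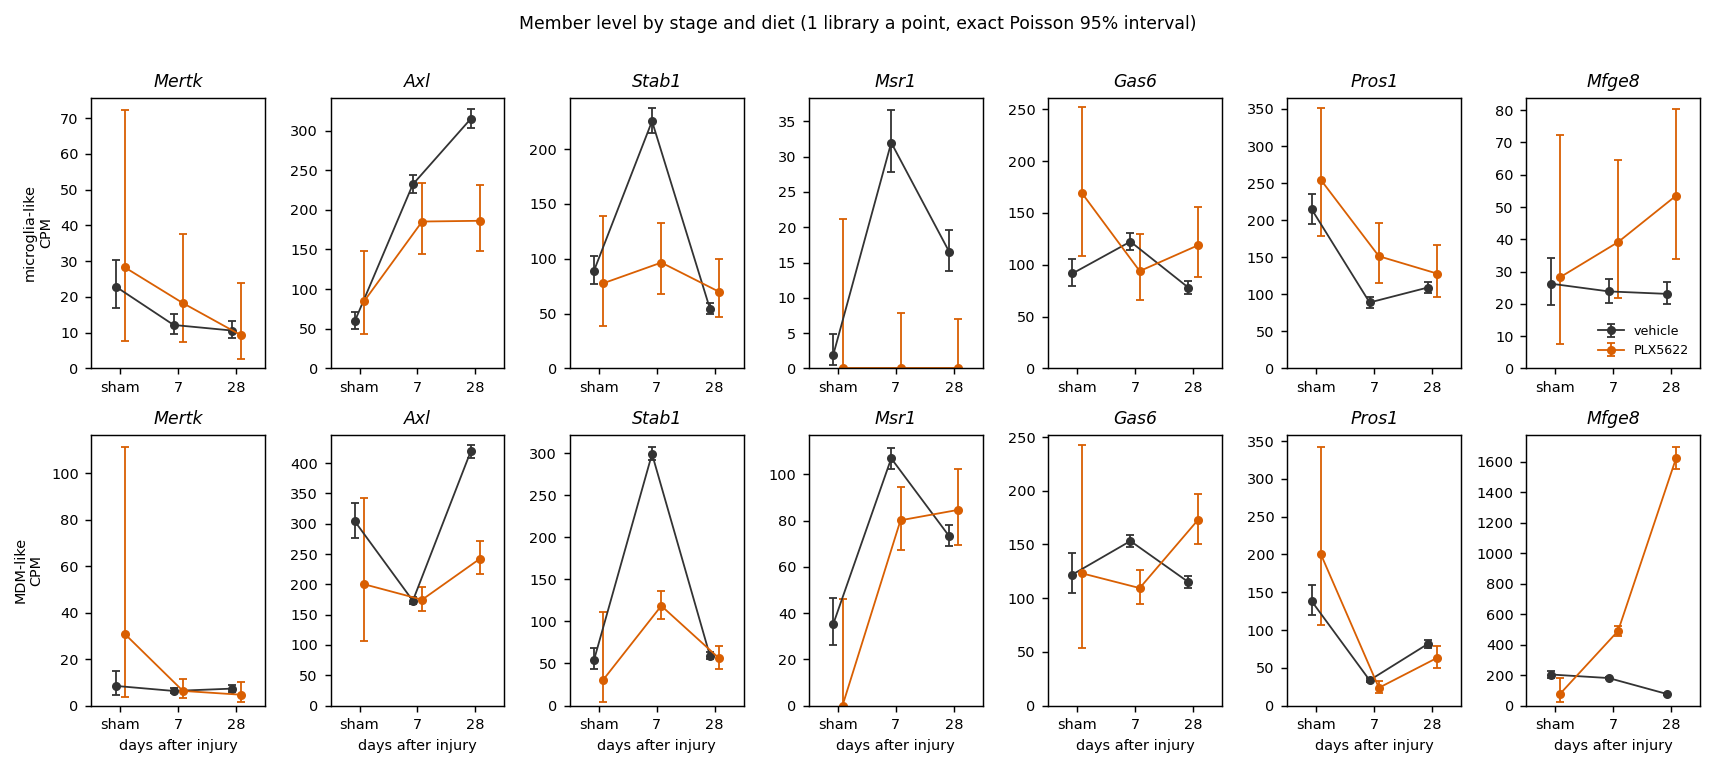
Level in CPM (vertical axes from 0) of the members in microglia-like and MDM-like cells at sham, 7 and 28 days after injury; points are single libraries of vehicle or PLX5622, bars are exact Poisson 95% intervals of counting error. Axl in microglia-like cells is above sham in both injured vehicle libraries (59.6, 232 and 315 CPM), Stab1 peaks at 7 dpi, and Mfge8 in MDM-like cells reaches 1624 CPM in the PLX5622 library of 28 dpi.

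Gas6, the ligand of Axl and Mertk, stayed within 2-fold, by total UMIs, in all 8 comparisons of the myeloid clusters. Microglia-like cells gave 91.6, 122 and 77.9 CPM under vehicle chow and 169, 93.9 and 119 under PLX5622. MDM-like cells gave 122, 153 and 115 CPM under vehicle, and 123, 109 and 172 under PLX5622. In MDM-like cells the PLX5622 library was below vehicle at 7 dpi, at -0.49 (-0.70 to -0.27), and above it at 28 dpi, at 0.59 (0.38 to 0.79). With cells thinned to 1000 UMIs the 7 dpi ratio was 0.15.

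Outside the myeloid clusters, ependymal-like cells gave 358, 167 and 305 CPM of Gas6 under vehicle and 486, 260 and 283 under PLX5622. The sham library was the highest under each diet and the 7 dpi library the lowest. Under vehicle, however, the sham interval (301 to 422) overlapped that of 28 dpi (268 to 347). Under PLX5622 the 2 injured libraries were within counting error of each other. Endothelial-like cells gave 239, 171 and 160 CPM under vehicle and 301, 219 and 155 under PLX5622, again with sham highest. Under vehicle the sham interval (188 to 301) overlapped those of 7 dpi (150 to 194) and 28 dpi (135 to 189). Under PLX5622 it (258 to 349) overlapped that of 7 dpi (183 to 262).

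Pros1, which encodes protein S, was lower in both injured vehicle libraries than in sham. Microglia-like cells gave 215 CPM in sham, 88.9 at 7 dpi and 109 at 28 dpi, with ratios of -1.27 (-1.45 to -1.09) and -0.98 (-1.14 to -0.81). MDM-like cells gave 138, 33.5 and 81.4 CPM, with ratios of -2.04 (-2.28 to -1.81) and -0.76 (-0.98 to -0.54). Sham was the highest of the PLX5622 libraries too, with 254, 151 and 128 CPM in microglia-like cells and 200 (13 UMIs), 23.5 and 62.9 in MDM-like cells. At 7 dpi the PLX5622 library was above vehicle in microglia-like cells, at 0.77 (0.35 to 1.16), and below it in MDM-like cells, at -0.51 (-1.01 to -0.06). Pros1 levels in endothelial-like cells ran from 68.8 to 110 CPM over the 6 libraries.

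Mfge8 showed the largest ratio among the members between diets. MDM-like cells gave 204 CPM in vehicle sham (289 UMIs), 180 at 7 dpi (3586 UMIs) and 76.2 at 28 dpi (1056 UMIs). Under PLX5622 they gave 77.0 CPM in sham (5 UMIs), 490 at 7 dpi (856 UMIs) and 1624 at 28 dpi (2090 UMIs). At 7 dpi PLX5622 stood 2.72-fold above vehicle, a log2 ratio of 1.44 (1.33 to 1.55). At 28 dpi it stood 21.3-fold above, a log2 ratio of 4.41 (4.31 to 4.52). Microglia-like cells held little Mfge8, with 26.2, 23.8 and 23.1 CPM under vehicle and 28.2, 39.1 and 53.5 under PLX5622.

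These MDM-like UMIs came from few cells. In the PLX5622 library of 28 dpi the 10 cells with the most Mfge8 held 87.8% of its 2090 UMIs, and the highest cell held 546. For Axl and Stab1 in the same cells the 10 highest cells of each gene held 25.0% and 44.4%. A cell with at least 10 Mfge8 UMIs is called Mfge8-high here, a cut set after the values were seen. Vehicle sham held 3 such cells among 185, the 7 dpi library 91 among 3023 (3.01%, 2.43 to 3.68) and the 28 dpi library 19 among 3313 (0.574%, 0.346 to 0.894). Under PLX5622 none of the 9 sham cells passed, which allows a share of up to 33.6%, whereas 13 of 100 cells passed at 7 dpi (13%, 7.11 to 21.2). At 28 dpi 17 of its 161 cells passed (10.6%, 6.27 to 16.4). They held 66.6% of the Mfge8 UMIs of MDM-like cells in the vehicle library of 7 dpi, 44.5% at 28 dpi, 88.3% under PLX5622 at 7 dpi and 96.9% at 28 dpi.

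The Mfge8-high cells were deeper than the others, with a median of 16033 against 5996 UMIs under PLX5622 at 28 dpi and 9736 against 5652 under vehicle at 7 dpi. Under PLX5622, 11 of the 13 at 7 dpi and 11 of the 17 at 28 dpi exceeded 3000 genes, the limit that the study states. Under vehicle 19 of the 91 at 7 dpi and 2 of the 19 at 28 dpi did. A matched measure, at least 2 Mfge8 UMIs after thinning to 1000, gave 1.14%, 2.83% and 0.645% of vehicle cells. Under PLX5622 it gave 0 of 9 cells, 7.07% (2.89 to 14.0) and 10.0% (5.71 to 16.0). The share was thus higher under PLX5622 at 28 dpi at equal depth, with intervals that did not overlap, while at 7 dpi the PLX5622 interval overlapped that of vehicle (2.26 to 3.48). Of all 165 Mfge8-high cells in the series, 143 were in the MDM-like cluster and 11 in the endothelial-like cluster. Scrublet, a doublet caller, marked none of the 143, but it had not worked in the vehicle library of 7 dpi, where it marked 1 of 7439 cells.

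Without the Mfge8-high cells the remaining MDM-like cells held 13.4, 63.6 and 42.7 CPM under vehicle and 77.0, 75.8 and 64.7 under PLX5622. The ratio of PLX5622 over vehicle was then 0.25 at 7 dpi and 0.60 at 28 dpi. The ratio of vehicle 28 dpi over sham, -1.42 (-1.61 to -1.23) with all cells, was 1.67 without them, because 3 cells held 271 of the 289 sham UMIs. No direction is therefore read from the vehicle time course of Mfge8 in this cluster.

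**Figure D3:**
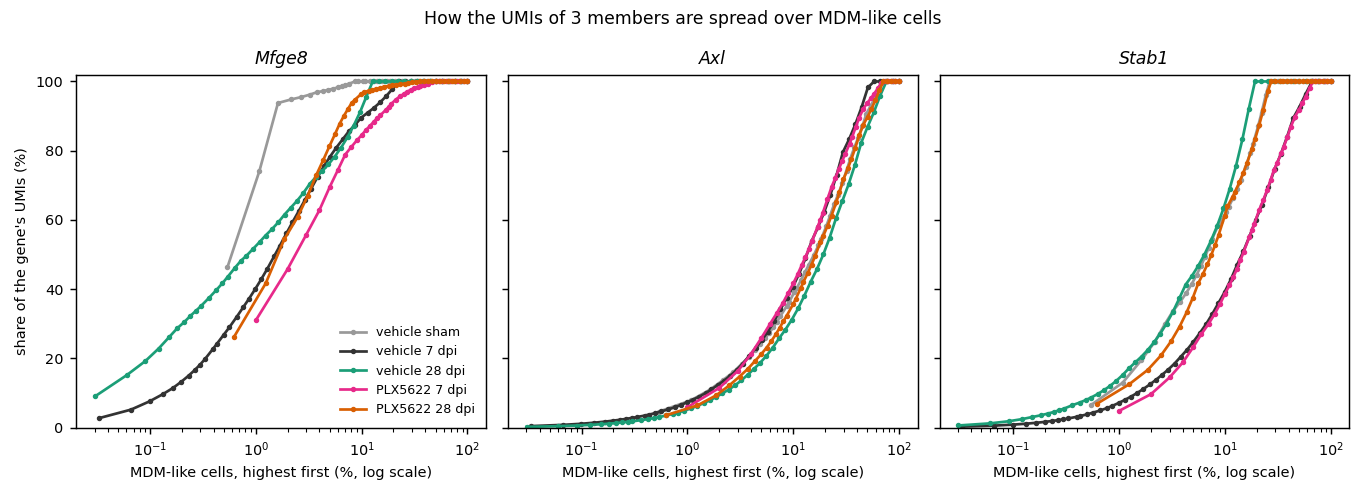
Cumulative share of a gene's UMIs (vertical axis, %) held by MDM-like cells ranked from the highest (horizontal axis, % of cells on a log scale), for Mfge8, Axl and Stab1; each line is a library. The Mfge8 line of PLX5622 at 28 dpi reaches 87.8% within the 10 highest cells, where Axl reaches 25.0% and Stab1 44.4%.

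What else the Mfge8-high cells expressed was read from genes chosen after their values were seen, with no test. Under PLX5622 at 28 dpi they held 21413 CPM of Gpnmb, a glycoprotein of lysosome-rich macrophages, against 6567 in the other MDM-like cells. Acp5, the tartrate-resistant acid phosphatase, stood at 490 against 33.8 CPM, the proton pump subunit gene Atp6v0d2 at 703 against 121, and Ctsl, which encodes a lysosomal protease, at 10035 against 2527. The chemokine receptor gene Cx3cr1 stood at 142 against 1156 CPM and Csf1r, the receptor that PLX5622 inhibits, at 117 against 635. Axl (131 against 274) and Pros1 (24.9 against 73.6) were lower in them too, and Gas6 (160 against 176) was close. The same sides held for Gpnmb, Acp5, Atp6v0d2, Ctsl, Cx3cr1 and Csf1r in the vehicle libraries of 7 and 28 dpi and in the PLX5622 library of 7 dpi. Spp1, another MDM marker, did not keep its side. It was lower in the Mfge8-high cells under PLX5622 at 28 dpi (9623 against 11916 CPM) and close under vehicle at 28 dpi (15166 against 15026). At 7 dpi it was higher in them under vehicle (26103 against 20351) and PLX5622 (69458 against 39601). Fabp5, also an MDM marker, was higher in the Mfge8-high cells of all 4 libraries. Dcn, a fibroblast marker, had 0 UMIs in the Mfge8-high cells in each of these 4 libraries. Pecam1, an endothelial marker, had 0 UMIs under PLX5622 at 28 dpi and vehicle at 28 dpi, 1 under vehicle at 7 dpi, and 4 (9.36 CPM) under PLX5622 at 7 dpi, where the other cells had 0.

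Mfge8 was also higher under PLX5622 in some libraries of other clusters. In the fibroblast and pericyte marker cluster it gave 298, 552 and 531 CPM under vehicle and 1079, 505 and 1508 under PLX5622, in 10 to 66 cells per library. The vehicle library of 7 dpi and the PLX5622 library of 28 dpi held 41653 and 21215 UMIs of this cluster. Both sums are under 50000 UMIs. In the oligodendrocyte lineage-like cluster the PLX5622 library of 7 dpi gave 708 CPM (104 UMIs in 28 cells), against 128 under vehicle. T cell-like cells, which should lack the gene, gave 50.9 CPM (20 UMIs) under PLX5622 at 28 dpi and from 9.82 to 29.7 CPM in the other 5 libraries. Their thinned share with a UMI was 4.05% there, against 12.7% of MDM-like cells, and 11.9% against 33.5% before thinning.

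Astrocyte-like cells were few after injury, with 310, 69 and 245 under vehicle and 204, 39 and 107 under PLX5622. RNA of myeloid cells stood in them to a degree that differed between libraries. The summed level of the 12 genes of the myeloid RNA list was 1685, 22623 and 21994 CPM under vehicle and 101, 2238 and 950 CPM under PLX5622, so it moved with both injury and diet. Its part in the values of this cluster was not tested beyond leaving out cells with at least 3 of these UMIs.

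Megf10, the glial receptor, gave 88.5 CPM in vehicle sham astrocyte-like cells (69 UMIs), 59.9 at 7 dpi (11 UMIs) and 70.0 at 28 dpi (29 UMIs). Neither injured library was separable from sham, at -0.56 (-1.63 to 0.36) and -0.34 (-1.02 to 0.31). Under PLX5622 it gave 104, 105 and 152 CPM. The ratio over vehicle was 0.23 in sham (-0.29 to 0.75), 0.81 at 7 dpi (-0.54 to 2.15) and 1.12 at 28 dpi (0.26 to 1.96). In cells with fewer than 3 myeloid UMIs the last ratio was 0.29.

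Axl in astrocyte-like cells gave 70.5, 207 and 273 CPM under vehicle, at 1.55 (0.92 to 2.17) and 1.95 (1.47 to 2.44) over sham, and 83.6, 209 and 185 CPM under PLX5622. In cells with fewer than 3 myeloid UMIs the ratio at 28 dpi was 0.88, and that of PLX5622 over vehicle at 28 dpi was 0.50 in place of -0.56. Stab1 gave 2.57 CPM (2 UMIs), 136 (25 UMIs) and 19.3 (8 UMIs) under vehicle, and 0, 0 and 1 UMI under PLX5622, which follows the order of the myeloid RNA at 7 dpi.

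Mfge8 in astrocyte-like cells gave 106, 212 and 121 CPM under vehicle and 133, 286 and 435 under PLX5622. At 28 dpi the ratio of PLX5622 over vehicle was 1.85 (1.30 to 2.41), or 0.93 in cells with fewer than 3 myeloid UMIs. Gas6 gave 65.4, 70.7 and 99.0 CPM under vehicle and 106, 238 and 211 under PLX5622, with ratios between the diets of 1.75 at 7 dpi (0.73 to 2.84) and 1.09 at 28 dpi (0.38 to 1.79). Of the 25 Gas6 UMIs under PLX5622 at 7 dpi, 16 came from 1 cell. In cells with fewer than 3 myeloid UMIs the Gas6 ratio at 28 dpi was 1.33.

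Endothelial-like cells numbered 82, 351 and 420 under vehicle and 76, 81 and 65 under PLX5622, and their myeloid RNA list summed to 1592, 9654 and 11995 CPM under vehicle and 172, 1867 and 1548 under PLX5622. Axl gave 12.9 CPM (4 UMIs), 59.9 and 137 under vehicle, at 2.21 (0.80 to 4.12) and 3.41 (2.02 to 5.31) over sham, and 25.5, 33.6 and 51.6 under PLX5622. In cells with fewer than 3 myeloid UMIs these ratios over sham were 2.25 and 3.45, the first on under 20 UMIs, too few to be counted. T cell-like cells, which should lack Axl, gave 7.20, 86.5 and 167 CPM under vehicle, and B cell-like cells 13.7 (1 UMI), 118 and 184. Both injured endothelial-like levels lay below the matching T cell-like and B cell-like levels. No rise of Axl particular to endothelial-like cells is therefore read. Stab1, which sinusoidal endothelium is known to express, gave 61.5, 118 and 65.3 CPM under vehicle and 57.8, 54.9 and 55.9 under PLX5622. The Stab1 ratio at 7 dpi was 0.94 (0.25 to 1.71) over sham and -1.10 (-1.70 to -0.54) for PLX5622 over vehicle. In cells with fewer than 3 myeloid UMIs these were 0.19 and -0.10. For Axl at 7 dpi PLX5622 over vehicle was -0.83 (-1.63 to -0.10) in all endothelial-like cells and -2.27 in those with fewer than 3 myeloid UMIs, but 0.31 in cells of at most 3000 genes, so no direction is read from it.

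Msr1 in endothelial-like cells gave 0, 31 and 9 UMIs under vehicle and 0, 1 and 1 under PLX5622, where the filter had set Msr1 to 0 in the sham library. Mfge8 gave 74.4, 147 and 134 CPM under vehicle and 218, 143 and 280 under PLX5622. The ratio of PLX5622 over vehicle was 1.55 (0.90 to 2.26) in sham, where it was 0.63 with each cell weighted alike and -0.13 with cells of at most 3000 genes, and 1.06 (0.60 to 1.51) at 28 dpi. At 28 dpi 60 of its 65 UMIs under PLX5622 were in 10 cells, and the ratio was 0.78 without cells of high Scrublet score, 0.56 in cells with fewer than 3 myeloid UMIs and 0.33 with each cell weighted alike.

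**Figure D4:**
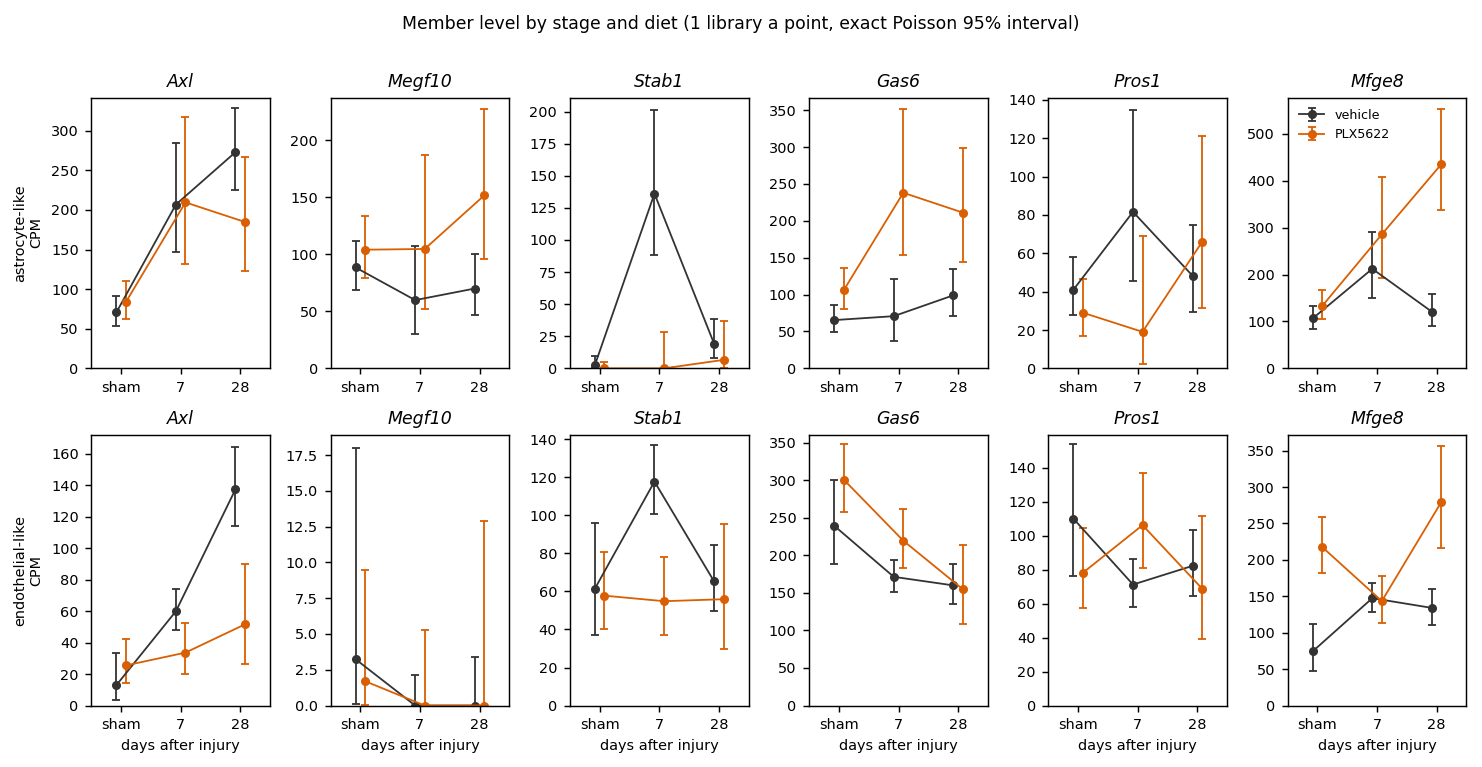
Level in CPM (vertical axes from 0) of the members in astrocyte-like and endothelial-like cells at sham, 7 and 28 days after injury; points are single libraries of vehicle or PLX5622, bars are exact Poisson 95% intervals of counting error. Megf10 lies between 59.9 and 152 CPM in astrocyte-like cells, and Axl is above its sham level in both injured vehicle libraries of both clusters. The same holds for Axl in B cell-like and T cell-like cells, which are not drawn.

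To set the members against all genes, ratios past 2-fold were counted among genes whose UMIs in both libraries together came to 20 or more. In microglia-like cells at 7 dpi over sham, 7 members were measured, of which 3 were higher (Axl, Stab1 and Msr1) and 1 lower (Pros1), while 4.8% of all 9797 genes were higher and 26.6% lower. At 28 dpi over sham 2 were higher (Axl and Msr1) and 1 lower (Mertk), against 4.63% and 16.5% of 10054 genes. Under PLX5622, against vehicle, none was higher and 2 were lower at 7 dpi (Stab1 and Msr1), against 6.04% and 7.16% of 9287 genes. At 28 dpi 1 was higher (Mfge8) and 1 lower (Msr1), against 4.82% and 7.76% of 9717.

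The many genes below 2-fold in the injured libraries depend on the scale. The median log2 ratio of all genes in microglia-like cells was -0.60 at 7 dpi and -0.47 at 28 dpi under scaling by total UMIs, and 0.04 and 0.03 with the TMM factors of edgeR. The share of past 2-fold genes that were higher was 15.3% at 7 dpi and 21.9% at 28 dpi by totals, and 64.7% and 69.5% by TMM. With TMM the microglia-like ratios at 7 dpi were 2.59 for Axl, 1.97 for Stab1, 4.70 for Msr1, -0.64 for Pros1, -0.28 for Mertk and 1.05 for Gas6. At 28 dpi they were 2.90 for Axl, -0.22 for Stab1, 3.61 for Msr1, -0.48 for Pros1 and -0.61 for Mertk, while Gas6 went from -0.23 to 0.27 and Mfge8 from -0.19 to 0.31. Axl, Stab1 at 7 dpi and Msr1 were thus above sham on both scales, and Pros1 was below sham on both, but by less than 2-fold with TMM. For Msr1, whether the microglia-like UMIs exceed free RNA depends on the measure and on the cluster taken as background, here and in the counts above. The TMM value of Mertk at 7 dpi lay outside its counting interval by totals, and no difference of Mertk from sham is read there.

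In MDM-like cells 7 members were measured in each comparison. At 7 dpi over sham 2 were higher (Stab1 and Msr1) and 1 lower (Pros1), against 5.1% and 15.2% of 10670 genes. At 28 dpi over sham 1 was higher (Msr1) and 1 lower (Mfge8), against 3.15% and 9.45% of 10302. For PLX5622 over vehicle 1 was higher (Mfge8) and 1 lower (Stab1) at 7 dpi, against 4.49% and 4.5% of 10672 genes, and 1 was higher (Mfge8) and none lower at 28 dpi, against 4.79% and 5.2% of 10261. The median of all genes was -0.28 and -0.27 for the injured libraries over sham, and 0.06 and 0.05 by TMM, with 25.2% and 25.0% of past 2-fold genes higher by totals and 58.2% and 58.6% by TMM. Axl stayed below sham at 7 dpi by TMM, at -0.46, and above it at 28 dpi, at 0.79, whereas Mfge8 at 7 dpi went from -0.18 to 0.18 and Gas6 at 28 dpi from -0.09 to 0.24.

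In astrocyte-like cells 6 members were measured at 7 dpi over sham, with 2 higher (Axl and Stab1) and none lower, against 11.9% and 29.3% of all genes, and 5 at 28 dpi, with 1 higher (Axl), against 11.1% and 18.6%. Between the diets 5 were measured each time. None was past 2-fold in sham, against 3.03% and 2.98% of all genes, 1 was higher (Gas6) and 1 lower (Stab1) at 7 dpi, against 19.4% and 15.7%, and 3 were higher (Gas6, Mfge8 and Megf10) at 28 dpi, against 21.9% and 14.1%. Under TMM, Gas6 and Megf10 at 28 dpi were at 0.60 and 0.62, within 2-fold, as the median of all genes went from 0.31 to -0.18.

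In endothelial-like cells 6 members were measured at 7 dpi over sham, with 2 higher (Axl and Msr1), against 9.46% and 7.73% of all genes past 2-fold higher and lower, and 5 at 28 dpi, with 1 higher (Axl), against 7.86% and 6.66%. For PLX5622 over vehicle 1 of 4 was higher in sham (Mfge8), against 5.57% and 2.9%. At 7 dpi 2 of 6 were lower (Stab1 and Msr1), against 3.88% and 7.59%, and at 28 dpi 1 of 5 was higher (Mfge8) and 1 lower (Axl), against 4.59% and 8.22%. In the astrocyte-like and endothelial-like comparisons the counts rest on 4 to 6 members, and nothing particular to the members is read from them.

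**Figure D5:**
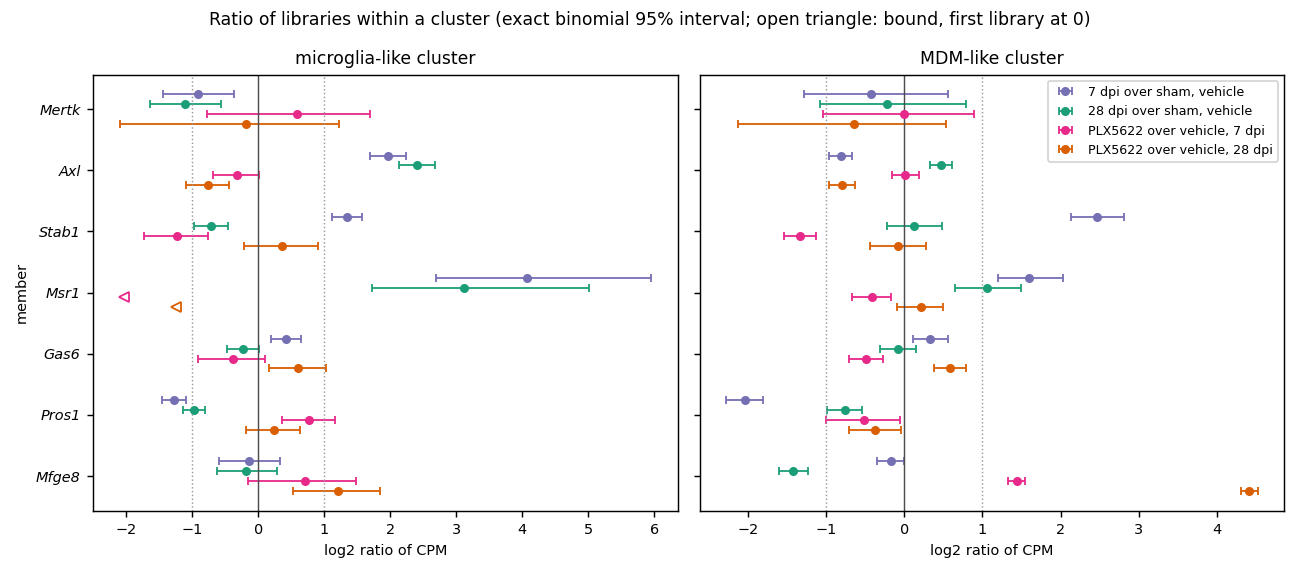
Log2 ratio of CPM (horizontal axis) of 7 members between libraries in microglia-like and MDM-like cells, with exact binomial 95% intervals; open triangles are bounds where the first library is at 0. Mfge8 in MDM-like cells stands at 4.41 for PLX5622 over vehicle at 28 dpi, and the Msr1 ratios over sham in microglia-like cells are the next highest, at 4.07 and 3.11. The injured vehicle levels behind these Msr1 ratios, 32.0 and 16.5 CPM, compare with 27.2 and 32.3 CPM in B cell-like cells.

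The share of a member's UMIs in a cluster is set here beside the cluster's share of cells and of all UMIs. In the vehicle sham library 67.6% of Mertk UMIs and 54.7% of Pros1 UMIs were in microglia-like cells, which were 37.5% of its cells and held 29.2% of all its UMIs. At 7 dpi microglia-like cells held 32.7% of Mertk and 35.1% of Pros1 UMIs and were 29.0% of cells with 18.9% of all UMIs. MDM-like cells, then 40.6% of cells with 55.7% of all UMIs, held 83.7% of Mfge8, 68.3% of Msr1, 64.5% of Stab1 and 63.5% of Gas6 UMIs. Their share of Axl UMIs, 55.7%, was that of all UMIs. Under PLX5622 MDM-like cells were 17.1% of the cells at 28 dpi, with 34.8% of all UMIs, and held 88.7% of Mfge8 and 90.1% of Msr1 UMIs. In the PLX5622 sham library, where both myeloid clusters were nearly empty, the largest shares were in endothelial-like cells for Mfge8 (37.1%) and Stab1 (65.4%), in ependymal-like cells for Gas6 (31.5%) and in the fibroblast and pericyte marker cluster for Axl (33.5%). These clusters held 22.6%, 14.2% and 4.09% of all UMIs.

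The wider pathway was followed through 49 further genes, of which 48 were in the table: engulfment receptors, bridging proteins, engulfment machinery, find-me and do-not-eat-me signals, and genes of receptor shedding and transcription. In microglia-like cells at 7 dpi over sham, 7 of 36 measured were past 2-fold higher and 5 lower, against 4.8% and 26.6% of all genes, with a median of -0.24 against -0.60. Anxa5, which encodes a phosphatidylserine-binding annexin, was higher at 1.99 (1.70 to 2.30), as was the signalling adaptor Tyrobp at 1.34 (1.30 to 1.38). Cd47, the do-not-eat-me signal, was lower at -1.40 (-1.63 to -1.18). At 28 dpi 4 of 35 were higher and 3 lower, against 4.63% and 16.5% of all genes. Anxa5 stood at 2.09 and Tyrobp at 1.18, and the fractalkine receptor Cx3cr1 and the phosphatidylserine receptor Havcr2 at -1.07 and -1.10. The pathway ratios, here and below, are by total UMIs and were not recomputed with TMM factors. Whether Cd47, Cx3cr1 and Havcr2 are past 2-fold lower on that scale was not tested.

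In MDM-like cells at 7 dpi over sham 7 of 40 pathway genes were higher and 2 lower, against 5.1% and 15.2% of all genes. The scavenger receptor Cd36 stood at 2.28 (1.82 to 2.79) and thrombospondin-1, Thbs1, at 3.18 (2.34 to 4.19), while Cx3cr1 was at -1.31 (-1.36 to -1.25) and Sirpa, the receptor of Cd47, at -0.89. At 28 dpi none of 38 was higher and 2 were lower, against 3.15% and 9.45%, with Cd36 at -0.94 and Cd47 at -0.93 at one end and Tyrobp at 0.71 and Anxa5 at 0.52 at the other. The medians were -0.07 and -0.00 against -0.28 and -0.27 over all genes.

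Between the diets, 5 of 40 pathway genes of MDM-like cells were higher under PLX5622 and 2 lower at 7 dpi, against 4.49% and 4.5% of all genes, with a median of -0.03 against 0.01. Thbs1 stood at 2.45 (2.32 to 2.59) and annexin Anxa1 at 1.60 (1.39 to 1.82), while C1qa, an opsonin of the complement system, was at -0.66 (-0.69 to -0.62) and Cx3cr1 at -0.87. At 28 dpi 5 of 38 were higher and none lower, against 4.79% and 5.2%, with a median of 0.02 against 0.01. Anxa1 stood at 3.91 (3.35 to 4.48), Cd36 at 1.91 (1.48 to 2.32), C1qa at -0.50 and the nucleotide receptor P2ry6 at -0.43. In microglia-like cells 2 of 36 were higher and 1 lower at 7 dpi, against 6.04% and 7.16% of all genes, and 1 of 35 each way at 28 dpi, against 4.82% and 7.76%. At 7 dpi the ends of the list were the liver X receptor gene Nr1h2 at 0.83, Cd47 at 0.53, the engulfment adaptor Elmo1 at -0.67 and the lipid exporter Abca1 at -0.75. At 28 dpi they were the phosphatidylserine receptor Cd300lf at 0.81, the engulfment receptor Lrp1 at 0.79, the adaptor Crk at -0.67 and Anxa5 at -0.81. Of these 8 only Abca1, Lrp1 and Anxa5 had intervals without 0.

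In astrocyte-like cells 12 of 24 pathway genes were higher at 7 dpi over sham, against 11.9% of all genes, and 11 of 19 were lower for PLX5622 over vehicle at 7 dpi, against 15.7%. In endothelial-like cells the same counts were 17 of 38, against 9.46%, and 16 of 38, against 7.59%. The summed myeloid RNA given above differed in the same direction in each of these 4 comparisons, the list holds many genes that myeloid cells express, and its part in these counts was not tested.

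Patterns over clusters and libraries were compared by the correlation of log2(CPM + 5) across 75 sums of cells and 9451 genes, as a description, since the sums share libraries and depth. The genes most like Axl were Renbp (r = 0.82), Rrbp1 (0.80) and Lgals3bp (0.80). Those most like Stab1 were C3ar1 (0.83), Ltc4s (0.81) and Plxna4os1 (0.80), and those most like Msr1 were Ms4a7 (0.82), Folr2 (0.81) and Apoc2 (0.80). Megf10 was most like Arxes2 (0.95), Scg3 (0.94) and Tagln3 (0.94), and Gas6 most like Apbb2 (0.84), Rilpl1 (0.78) and Ppap2a (0.77). Pald1 (0.76) was among the 3 genes most like Pros1, and Mertk was most like Slc2a5 (0.72), Rapsn (0.72) and Hspb3 (0.71). The weakest likeness was that of Mfge8, with Slc6a8, Sdc3 and Ttyh2 all at 0.66. The choice of likest genes depends on the pseudocount. With 1 in place of 5, none of the 3 remained for Megf10, 1 each for Pros1 and Mfge8, 2 each for Mertk, Axl and Gas6, and all 3 for Stab1 and Msr1. Among the members themselves the highest values were 0.75 for Msr1 with Stab1 and 0.69 for Pros1 with Gas6.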

How the data were processed

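Single-cell libraries were made from dissociated cord with the 10x Chromium 3′ chemistry. The authors deposited a table of UMI counts from Cell Ranger, filtered in Seurat on genes per cell and cells per gene, and a table with the cluster of each cell. The counts are raw, so no value was normalised before deposit, but 716 cells exceed the stated limit of 3000 genes and were kept. The genome build of these libraries is not given in the sources used here. The 14 bulk samples of the series were not analysed here, and no column of another series was found.

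For each cluster and library, a gene's UMIs were added up over cells and divided by all UMIs of those cells (CPM). A level has an exact Poisson 95% interval, a ratio an exact conditional binomial one, a share a Clopper-Pearson one. PCR copies are removed by UMIs, and all intervals cover counting error only. Total UMIs per library ran from 2606149 to 35694246. With 1 pool of mice per condition there is no test between conditions and no p-value. A ratio was counted as past 2-fold among genes with 20 or more UMIs in both libraries together, and a 0 was set to a floor of 3 counts per library. Clusters needed 30 cells in each library, so the sham libraries of the 2 diets were not compared in microglia-like and MDM-like cells. Barcode doublets were left in, and cells were thinned to 1000 UMIs where shares were compared. The calculations were tested on simulated data. Scaling alternatives used the TMM factors of edgeR 4.0.16 and the size factors of DESeq2 1.42.0 in R 4.3.3, with scipy 1.17.1 and Scrublet in scanpy 1.11.5 for the rest. The members and all gene lists were chosen with earlier results of these data known. The text names the 8 members, the 3 genes most like each, and in the myeloid clusters the 2 highest and 2 lowest pathway genes of each comparison with 100 or more UMIs together and 10 or more in each library. No sequence is shown, since the values are counts per gene. A few genes that this rule would name are not reported here.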

Additional observations from a re-analysis of the deposited data

Results flagged for a closer look

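For 3 members a pair of ratios under the same contrast lay on opposite sides of 0, with neither interval including 0. Each group is 1 library, so the difference itself was not tested. Axl at 7 dpi over vehicle sham was 1.96 (1.70 to 2.24) in microglia-like cells and -0.81 (-0.96 to -0.67) in MDM-like cells, and both ratios kept their sign with TMM factors, at 2.59 and -0.46. The sham MDM-like value rests on 431 UMIs in 185 cells. Gas6 in MDM-like cells for PLX5622 over vehicle was -0.49 at 7 dpi (-0.70 to -0.27) and 0.59 at 28 dpi (0.38 to 0.79), and the first was 0.15 with each cell thinned to 1000 UMIs. Pros1 for PLX5622 over vehicle at 7 dpi was 0.77 (0.35 to 1.16) in microglia-like cells, on 58 UMIs in 61 cells, and -0.51 (-1.01 to -0.06) in MDM-like cells, on 41 UMIs in 100 cells.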

How the results depend on the processing

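No paired analysis was possible because each condition is 1 library, and for the same reason no library could be left out. Of 198 recomputed counts of members past 2-fold, 149 stayed within 1.5 times the reported count, and of the single ratios and shares recomputed 866 stayed within the counting interval of the reported value, 226 moved outside it and 3 reversed. The following alternatives were chosen after seeing the data: cells with at most 3000 genes, MDM-like cells without the Mfge8-high ones, and leaving out the expected share of cells by Scrublet score. Mfge8 reversed in MDM-like cells at 28 dpi over sham, from -1.42 to 2.52 with cells of at most 3000 genes and to 1.67 without the Mfge8-high cells. It also reversed in endothelial-like cells for PLX5622 over vehicle in sham, from 1.55 to -0.13 with cells of at most 3000 genes. In the MDM-like cluster 3 cells held 271 of the 289 sham UMIs, and all 3 are left out by both settings. The cause of the endothelial-like reversal was not tested.

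The counts of members past 2-fold that moved were these, and the cause was not tested. In microglia-like cells at 28 dpi the count of 3 became 5 with each cell weighted alike. In MDM-like cells at 7 dpi 3 became 5 with thinned cells, and for PLX5622 over vehicle at 7 dpi 2 became 1 with cells weighted alike or of at most 3000 genes. In astrocyte-like cells at 7 dpi 2 became 4 with TMM factors, DESeq2 size factors, totals without ribosomal protein genes or cells weighted alike, 1 with thinned cells and 0 with a minimum of 100 UMIs. At 28 dpi 1 became 3 with no minimum. For PLX5622 over vehicle the astrocyte-like count of 0 in sham became 1 with cells weighted alike. At 7 dpi 2 became 1 weighted alike or with at most 3000 genes, and 0 with thinned cells or the minimum of 100. At 28 dpi 3 became 6 with no minimum, and 1 without ribosomal protein genes, weighted alike, thinned, by Scrublet score, with fewer than 3 myeloid UMIs or with the minimum of 100.

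In endothelial-like cells at 7 dpi 2 became 4 with TMM, DESeq2 or no ribosomal protein genes, 1 weighted alike or with at most 3000 genes, and 0 with thinned cells, fewer than 3 myeloid UMIs or the minimum of 100. At 28 dpi 1 became 2 with TMM, DESeq2, Scrublet calls or the Scrublet score. For PLX5622 over vehicle 1 became 0 in sham weighted alike, thinned or with at most 3000 genes. At 7 dpi 2 became 0 thinned, by Scrublet score or with fewer than 3 myeloid UMIs, and 1 with at most 3000 genes or the minimum of 100. At 28 dpi 2 became 1 with TMM, DESeq2, thinned cells or Scrublet calls, and 0 by Scrublet score or with fewer than 3 myeloid UMIs.

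Scrublet calls were not run for comparisons with the vehicle library of 7 dpi, where it marked 1 of 7439 cells. Only 26 astrocyte-like cells of the vehicle library of 7 dpi held fewer than 3 myeloid UMIs, under the minimum of 30, so both astrocyte-like comparisons at 7 dpi lack that setting. Depth limits Mertk, with at most 11 UMIs in any PLX5622 sum of a myeloid cluster.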
